A study of Homo sapiens with 4 samples.

Results

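The genes described here are 10 members of the Notch pathway, namely the DNA-binding factor RBPJ, the receptors NOTCH1, NOTCH2 and NOTCH3, the ligand JAG1, the coactivators MAML1, MAML2 and MAML3, and the targets HES1 and HEY1. Their regions are those that 4 deposited tables of H3K27ac enhancer regions name for them, 36 of 45672 regions in all, and the tables name 13171 genes. The genes were selected on pathway membership and on the number of regions the tables name for them, so those numbers are descriptions with no test. The cells are Kasumi-1, a human acute myeloid leukaemia line with the t(8;21) translocation, treated with CRISPR/Cas9 and a non-targeting guide (sgNT, genotype WT, 2 samples) or a guide against SETD8 (sgSETD8, genotype SETD8 knockout, 2 samples). SETD8, gene symbol KMT5A, monomethylates histone H4 at lysine 20. The labels do not say whether the cells were a pool or a clone, how long after the guide they were taken, or whether samples came from separate cultures. H3K27ac, acetylation of histone H3 at lysine 27, marks active enhancers and promoters, and CUT&Tag maps it with a transposase that an antibody tethers to chromatin bearing the mark.

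Notch receptors are cut when a ligand on a neighbouring cell binds them, and the freed intracellular domain enters the nucleus. There it joins RBPJ on DNA and recruits a Mastermind-like coactivator (MAML1, MAML2 or MAML3), which turns on genes of the HES and HEY families, themselves repressors. Without the intracellular domain, RBPJ works with corepressors and keeps the same targets silent. In blood formation the pathway is known for its part in the emergence of stem cells and in the choice of the T cell fate.

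For 3 of these genes a start site lay inside regions of both larger tables, and the 250 bases before it are shown because the acetylated regions that carry the main values below span them. The sequences are RefSeq's, on GRCh38.p14, written 5′ to 3′ on the gene's strand, and capitals mark the letters GTGGGAA, the core that RBPJ is known to bind, or their reverse complement TTCCCAC. The windows are chr4:26319496-26319745 on the plus strand for RBPJ, chr5:179732572-179732821 on the plus strand for MAML1 and chr4:140154185-140154434 on the minus strand for MAML3.
RBPJ: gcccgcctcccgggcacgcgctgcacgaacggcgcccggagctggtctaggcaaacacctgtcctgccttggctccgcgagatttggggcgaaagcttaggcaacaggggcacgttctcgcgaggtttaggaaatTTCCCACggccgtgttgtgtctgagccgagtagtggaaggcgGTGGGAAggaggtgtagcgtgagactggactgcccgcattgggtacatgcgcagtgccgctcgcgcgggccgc
MAML1: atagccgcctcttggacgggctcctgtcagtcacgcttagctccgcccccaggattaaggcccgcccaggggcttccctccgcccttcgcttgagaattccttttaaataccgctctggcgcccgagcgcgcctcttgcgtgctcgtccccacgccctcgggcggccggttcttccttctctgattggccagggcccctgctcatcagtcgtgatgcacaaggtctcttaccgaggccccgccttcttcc
MAML3: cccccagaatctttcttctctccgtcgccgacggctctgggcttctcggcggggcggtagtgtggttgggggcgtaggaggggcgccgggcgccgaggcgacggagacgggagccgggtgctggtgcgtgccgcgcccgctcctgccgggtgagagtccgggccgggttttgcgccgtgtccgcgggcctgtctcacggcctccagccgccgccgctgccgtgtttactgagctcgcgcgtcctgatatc
The RBPJ window shown held 2 matches, whose first bases lie 115 and 73 bases before the start site at 26319746. The MAML1 and MAML3 windows held 0. The RBPJ windows before its other listed start sites, at 26163458, 26321014, 26321228 and 26343140, also held 0 and are not shown. Both strands were searched, and no other motif was. HES1 had 1 match, 85 bases before its start site, but no region of any table covered that window. Of the 13 windows listed for 9 of the 10 genes, 2 held a match, against 1906 of 35116 windows of all genes (5.43%). A match is a description of letters only.

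Names in the region identifiers sort the tables into 2 pairs. The sparse pair held 5186 sgNT and 7276 sgSETD8 regions, with median widths of 512 and 341 bp, and the dense pair 15149 and 18061, with medians of 1515 and 1499 bp. Each table is 1 library of unknown depth, so no value has a replicate error within a pair. With 2 tables a group the smallest p of a two-sided exact permutation test is 0.333, and no p-value is given. In bulk chromatin, fewer acetylated cells and less acetylation per cell cannot be told apart. In the sparse sgNT table the identifiers name only the cell line, and it was taken as sgNT because they hold no SETD8 guide. The markers of the line (RUNX1, RUNX1T1, KIT, CD34, MPO, SPI1 and MYB) had regions for 7 of 7 in both dense tables and for 5 and 6 in sparse sgNT and sgSETD8. Markers of T cells (CD3D, CD3E, CD247) had regions for 3 of 3 in both dense tables and 0 in the sparse ones. The globin genes HBB and HBG1 had no region in any of the 4 tables. Of the non-haematopoietic markers EPCAM, COL1A1 and CDH5, 1 of 3 had a region in dense sgNT, 2 in dense sgSETD8 and 0 in the sparse tables, COL1A1 being at 0 in all 4. Their part in the results was not tested. KMT5A had 1 region in each dense table, ranked 3224 and 3326, and none in the sparse tables, values that do not check the knockout.

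By the deposited gene names, RBPJ held 19 of the 36 regions of the 10 genes, while NOTCH2, JAG1, MAML2 and HEY1 had none in any table. Summed over the 10 genes, the sparse pair held 9 regions with sgNT and 4 with sgSETD8, and the dense pair 12 and 11. The difference, sgSETD8 minus sgNT, was thus -5 and -1, a mean of -3 ± 2.83 (SD, n = 2 pairs). The pairs rest on names in the identifiers and differ in region number and width, so this SD is no replicate error. In the sparse pair 3 of the 4 genes with a region had fewer with sgSETD8 (RBPJ, NOTCH1 and NOTCH3), where 33.4% of all 7397 genes with a region did, and none had more (51.3%). In the dense pair NOTCH1 alone of 6 had fewer (21.2% of 10826 genes), MAML3 alone had more (37.3%), and 4 had equal numbers (41.6%). By covered length, RBPJ alone of 4 was longer with sgSETD8 in the sparse pair (55.1% of all genes) and 3 were shorter (44.9%). In the dense pair RBPJ and MAML3, 2 of 6, were longer (62.1%) and 4 shorter (37.8%). The median difference per gene was -1 for the members against 1 for all genes in the sparse pair, and 0 against 0 in the dense pair. Peaks inside the regions numbered 53 in dense sgNT and 56 in dense sgSETD8, and 9 and 8 in the sparse tables. With so few genes, these shares set nothing apart from the background.

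The table's gene name is that of the nearest transcription start site (TSS), and for the long MAML genes this name and the position disagreed. Counting every region over the genes' spans in RefSeq, a measure added after the tables were seen, gave 67 regions, of which 39 were named for another gene. MAML3, with at most 1 region by name in a table, then had 372 kb of regions in dense sgNT and 397 kb in dense sgSETD8, bases between joined peaks included. This was the second longest cover of any protein-coding gene in both tables, with rank 2 in each. MAML2, with 0 by name, had 150 and 227 kb (ranks 68 and 20), and RBPJ 194 and 211 kb (ranks 33 and 30).

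**Figure D1:**
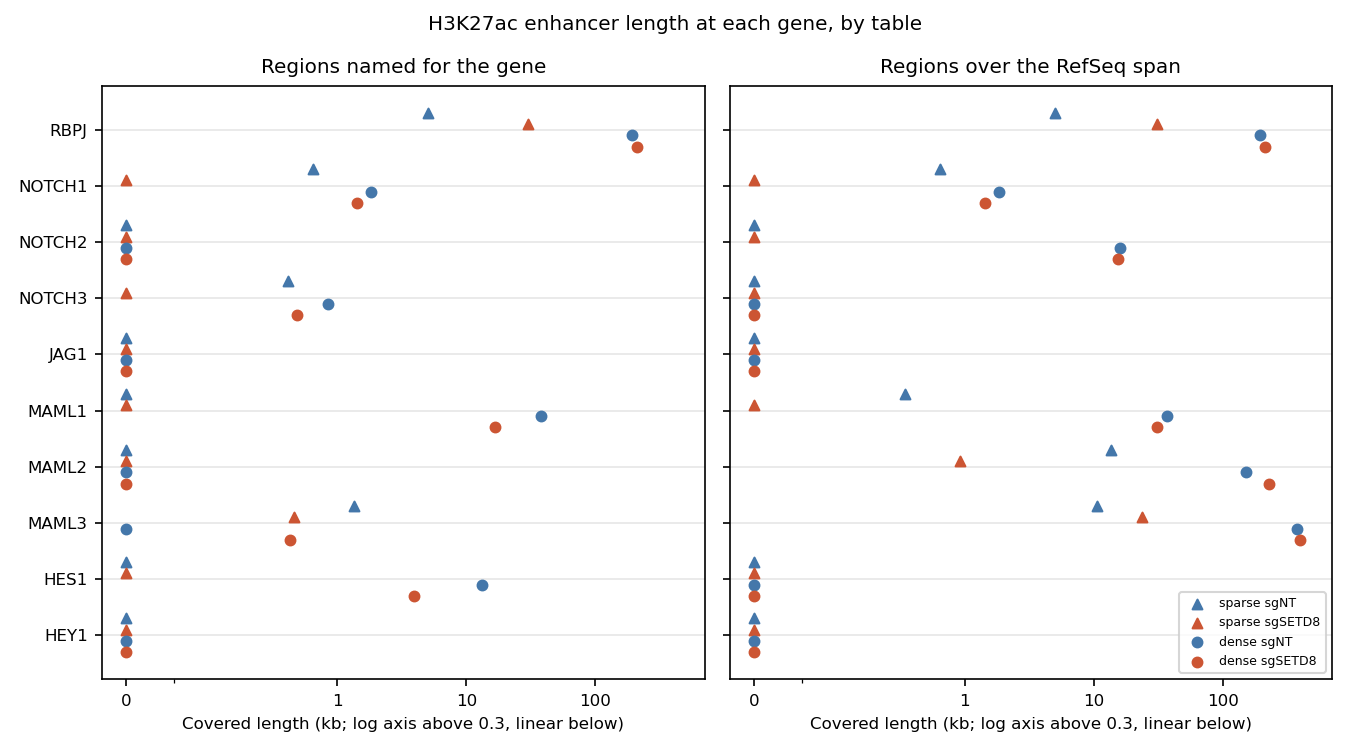
Covered length in kb (log axis above 0.3, linear below) for each of the 10 genes in the 4 tables, by regions named for the gene (left) and by regions over its RefSeq span (right); triangles are the sparse and circles the dense tables, blue sgNT and orange sgSETD8. MAML2 sits at 0 on the left and at 150 and 227 kb in the dense tables on the right, and MAML3 moves to 372 and 397 kb.

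RBPJ, the factor on which all Notch receptors converge in the nucleus, carried a chain of regions that stretched over 296 kb of chromosome 4, from 26133635 to 26429519. The main region spanned 4 of the 5 RBPJ start sites that RefSeq's table lists, all but the one at 26163458, and lay at 26302211 to 26427922 in dense sgNT (126 kb, 24 peaks, rank 19 of 15149) and 26302343 to 26429519 in dense sgSETD8 (127 kb, 29 peaks, rank 18 of 18061). Its authors' signal density was 1.60 per bp in sgNT and 1.29 in sgSETD8, on a scaling that is not stated. The stretch they share is 99.9% of the sgNT and 98.7% of the sgSETD8 region. Of the RBPJ regions 14 of 19 were annotated as intergenic, all of them before the annotated start site, and all lie inside RefSeq's span of RBPJ (26105449 to 26435131), which reaches further upstream.

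Upstream of the start site the dense tables held 4 more RBPJ regions each. The nearest, centred at -42.9 kb from the start in sgNT, ran from 26264367 to 26289301 in sgNT (5 peaks, density 1.92, rank 340) and from 26261760 to 26289642 in sgSETD8 (6 peaks, density 1.5, rank 289). The next ran from 26203429 to 26238991 in sgNT (35.6 kb, 5 peaks, density 0.528) and from 26193908 to 26238825 in sgSETD8 (44.9 kb, 7 peaks, density 0.573). Another pair did not touch, since the sgNT region ended at 26179271 and the sgSETD8 region began at 26179275, 3 bp apart. The farthest ran from 26138469 to 26143159 in sgNT (4691 bp, density 2.41) and from 26133635 to 26142804 in sgSETD8 (9170 bp, density 1.48). In 3 of these 4 upstream places the sgSETD8 region was the wider, the exception being the pair that did not touch (2650 bp in sgNT, 505 bp in sgSETD8). In total RBPJ had 5 regions in each dense table, with 37 peaks over 194 kb in sgNT and 46 peaks over 210 kb in sgSETD8. Cover was longer with sgSETD8 for 62.1% of all genes in the dense pair.

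Fewer peaks marked this stretch in the sparse tables. Sparse sgNT had 6 RBPJ regions of 1 peak each, 5.04 kb in all, and their densities ran from 1.02 to 7.43 per bp. The highest, at 26288015 to 26289180, lies in the dense region nearest before the start site. Sparse sgSETD8 had 3 regions with 7 peaks, 30.2 kb in all, of which 1 joined 5 peaks from 26273502 to 26303032 (29.5 kb, density 1.73) and ranked 5 of 7276. That region overlapped 3 separate sgNT regions, whose densities were 2.62 to 7.43 and which were 13389 and 12782 bp apart. The smaller number of RBPJ regions in sparse sgSETD8, 3 against 6, thus came with more peaks and a longer cover, and its covered length ranked 4 of 5266 genes in sparse sgSETD8 against 420 of 4001 in sparse sgNT. The joined region counts the bases between its peaks, so its density and those of the 3 narrow regions are not on equal terms. The other sparse regions were of 1 group only, 3 in sgNT (at 26141456, 26218674 and 26404755) and 2 in sgSETD8 (at 26331100 and 26377145), and each overlapped a region of both dense tables.

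**Figure D2:**
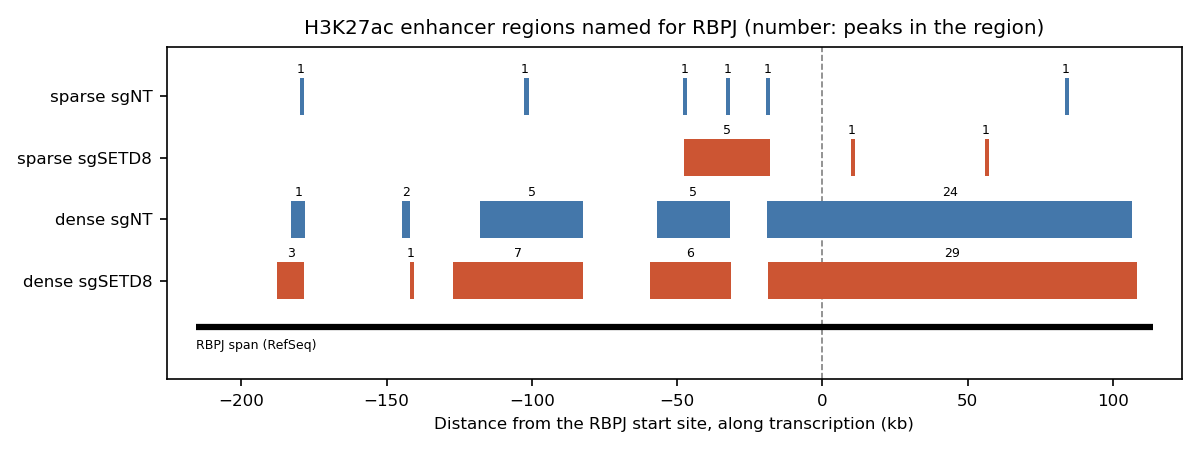
Regions named for RBPJ in the 4 tables, by distance in kb from the annotated start site (dashed line), with the number of peaks above each bar and the RefSeq span in black; blue is sgNT and orange sgSETD8, and the narrowest bars are drawn wider than to scale so that they show. At 4 of the 5 places the bars of the dense tables overlap, and the 3 sparse sgNT bars nearest before the start site overlap the 1 joined sparse sgSETD8 bar.

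Among the receptors, NOTCH1 had fewer regions with sgSETD8 than with sgNT in both pairs, 1 against 0 in the sparse and 3 against 1 in the dense tables, sgNT being the larger. NOTCH1 is the receptor of T cell commitment. Its acetylated stretch lay in intron 2, about 6 to 12 kb after the start site on chromosome 9. Dense sgNT had 3 short regions there, at 136533982 to 136534549 (density 0.771), 136538432 to 136539154 (0.640) and 136539760 to 136540301 (1.11). Dense sgSETD8 had 1, at 136538765 to 136540200 (1436 bp, density 0.532), which overlapped the second and the third and left the first without a counterpart by 4215 bp. The 3 sgNT regions were 3882 and 605 bp apart and carry identifiers of unjoined peaks, so joining neighbours at the stitching distance customary for super-enhancers makes them 1 region, and the dense counts for NOTCH1 are then equal. Covered length was 1.83 kb in sgNT and 1.44 kb in sgSETD8. Sparse sgNT had 1 region in the same stretch, at 136539532 to 136540179 (density 1.75, rank 2080), and sparse sgSETD8 had none within 245035 bp.

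NOTCH3 showed the same place in 3 tables, an intergenic region upstream of its start site on chromosome 19, centred at -9.44 kb in dense sgNT and -9.62 kb in the other 2 tables. It lay at 15210015 to 15210861 in dense sgNT (847 bp, density 1.67, rank 7613), at 15210378 to 15210861 in dense sgSETD8 (484 bp, density 1.95, rank 9615) and at 15210404 to 15210821 in sparse sgNT (418 bp, density 2.95, rank 1952). Sparse sgSETD8 had no region within 75300 bp of it. The dense sgSETD8 region was narrower and denser than the sgNT region. NOTCH1 and NOTCH3 were thus found with sgNT only in the sparse pair, 2 of 4 members with a region there, where 28.8% of all genes were sgNT-only, and each had a region in both groups in the dense pair. NOTCH2 had none by name, but both dense tables had a region over its intron 5 on chromosome 1 that was named for ADAM30. It ran from 119972181 to 119988042 in sgNT (15.9 kb, 3 peaks, density 0.397) and from 119972771 to 119988075 in sgSETD8 (15.3 kb, 5 peaks, density 0.287). The 2 groups therefore shared nearly all of that stretch.

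The ligand JAG1, which activates receptors on adjacent cells, had no region over its span on chromosome 20 in any table. The nearest dense sgSETD8 region, at 10637250 to 10637646 and named for MIR6870, ended 37 bp from the 3′ end of the span and ranked 16856 of 18061. The nearest dense sgNT region was 85439 bp away.

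HES1, the best known Notch target, had 2 intergenic regions after the gene on chromosome 3 in each dense table and none in the sparse pair. The nearer, about 6 kb after the start site, lay at 194141693 to 194142372 in sgNT (680 bp, density 0.961) and 194141738 to 194142665 in sgSETD8 (928 bp, density 0.977), and the 2 regions overlap by 635 bp. The farther, about 30 kb after the start, was 12.5 kb with 3 peaks in sgNT (194159208 to 194171717, density 0.606, rank 2995) and 2.98 kb with 1 peak in sgSETD8 (194166439 to 194169414, density 1.06, rank 5428). The sgSETD8 region lay wholly inside the sgNT region. HES1 thus had equal numbers of regions but 13.2 kb of cover in sgNT and 3.90 kb in sgSETD8. HEY1, the other target, on chromosome 8, had no region in its span in any table, and the nearest dense regions were 192257 bp (sgNT) and 53352 bp (sgSETD8) away.

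**Figure D3:**
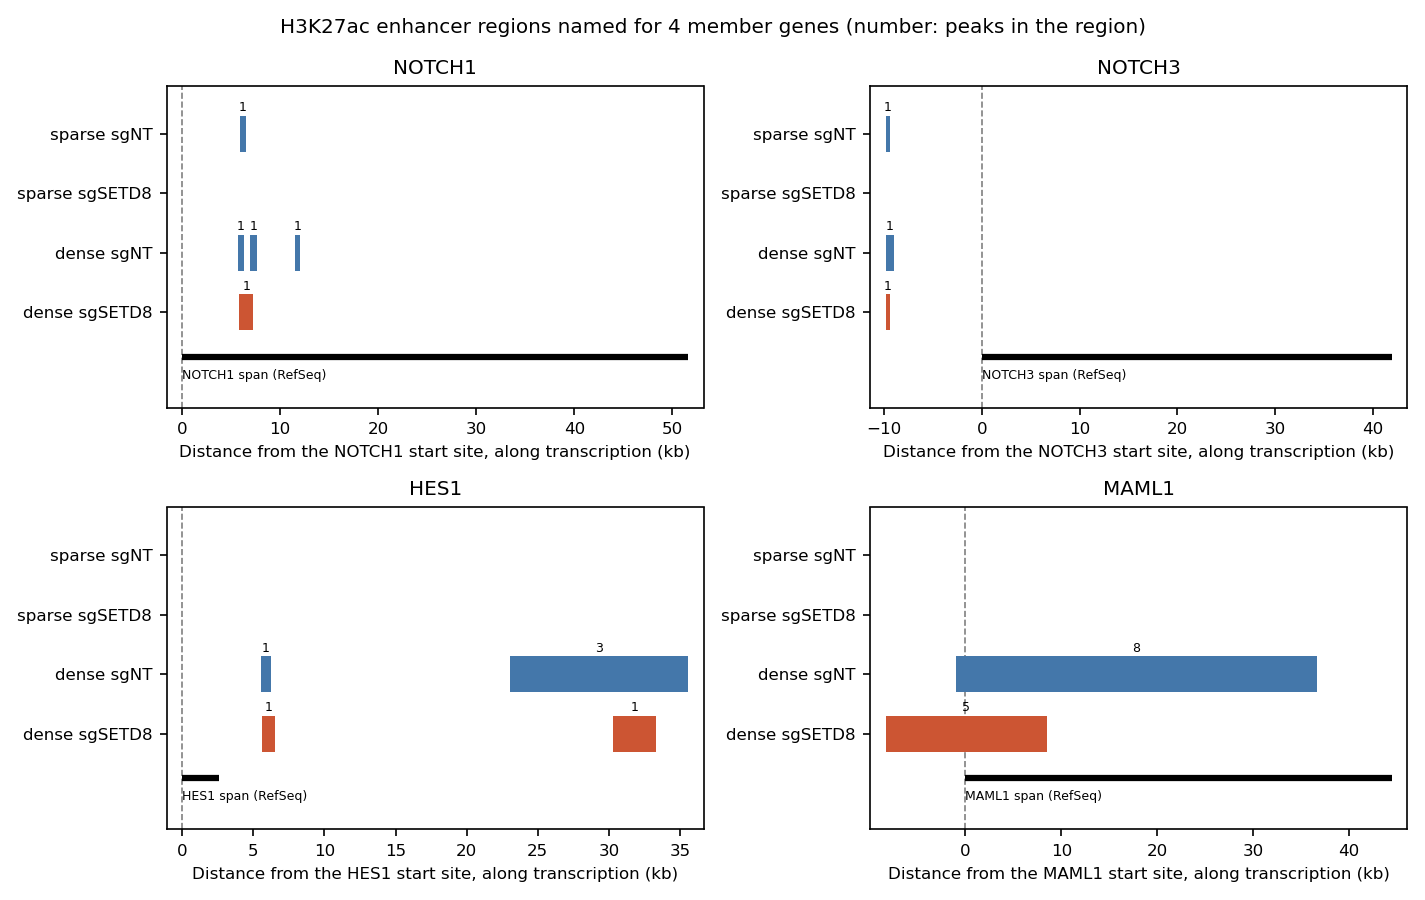
Regions named for NOTCH1, NOTCH3, HES1 and MAML1 in the 4 tables, by distance in kb from each start site (dashed line), with peak numbers above the bars and the RefSeq span in black; blue is sgNT and orange sgSETD8, and the narrowest bars are drawn wider than to scale. Sparse sgSETD8 has no bar at any of the 4 genes, and at the farther HES1 place and at MAML1 the sgSETD8 bar is the shorter.

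The coactivators are the proteins that bind the Notch-RBPJ complex and bring in acetyltransferases. MAML1 had 1 region in each dense table across its start site on chromosome 5. It ran from 179731890 to 179769444 in sgNT (37.6 kb, 8 peaks, density 0.490, rank 1265) and from 179724492 to 179741298 in sgSETD8 (16.8 kb, 5 peaks, density 0.452, rank 2767). The sgSETD8 table held a second region over the gene, at 179754340 to 179776912 (22.6 kb, 8 peaks, density 0.469), which overlaps the same sgNT region and is named for LTC4S. By position, 36.6 kb of the MAML1 span was covered in sgNT and 31.1 kb in sgSETD8. Sparse sgNT had 1 region over exon 2, also named for LTC4S, and sparse sgSETD8 had none over the gene.

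MAML2 had its acetylation in intron 1 and intron 2, on chromosome 11, all of it named for MIR1260B or MTMR2. In dense sgNT the stretch after the start site held 3 regions with 28 peaks over 149 kb, at 96299326 to 96340604 (density 0.695), 96207097 to 96280198 (0.532) and 96154500 to 96188861 (0.415). In dense sgSETD8 it was 1 region of 188 kb with 40 peaks, at 96154362 to 96342332 (density 0.558, rank 50). The sgNT regions were 18235 and 19127 bp apart, and the sgSETD8 region runs across both gaps. Farther in, intron 2 held 2 regions in dense sgNT and 3 in dense sgSETD8, the widest at 96062146 to 96095746 in sgSETD8 (33.6 kb, 5 peaks), and 1 narrow sgSETD8 region lay in intron 1 at 96125317 to 96125673. The regions over the whole span held 30 peaks in sgNT and 50 in sgSETD8. The sparse pair ran the other way in length, 13.7 kb in sgNT against 0.927 kb in sgSETD8, with 3 peaks in each.

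Over MAML3, on chromosome 4, regions covered 85.1% of the span in dense sgNT and 90.8% in dense sgSETD8. These joined regions count the bases between their peaks, so the shares are not lengths of acetylated chromatin. In the sparse tables regions covered 2.40% of the span with sgNT and 5.38% with sgSETD8. Around the start site both dense tables had a region named for LOC101927516, at 140019105 to 140158387 in sgNT (139 kb, 41 peaks, density 0.942, rank 47) and 140019126 to 140160420 in sgSETD8 (141 kb, 39 peaks, density 0.766, rank 46). In the last part of the gene, sgNT had 3 regions with 58 peaks over 236 kb where sgSETD8 had 1 region with 56 peaks over 261 kb (139725912 to 139987104, density 0.423, rank 44). A further narrow region of 1 peak lay between these stretches in each, at 140002610 to 140004076 in sgNT and 140003164 to 140004009 in sgSETD8. The regions over the span held 100 peaks in sgNT and 96 in sgSETD8. By name MAML3 had a region in intron 1 in both sparse tables, at 140151105 to 140152455 in sgNT (1351 bp, density 4.31, rank 538) and 140151237 to 140151699 in sgSETD8 (463 bp, density 2.11, rank 1027). The sgSETD8 region lay inside the sgNT region. Its only dense region by name was a weak one in sgSETD8, 33.6 kb before the start site (140187558 to 140187986, rank 17189), which made it the 1 member of 6 with a dense region in sgSETD8 only, where 20.5% of all genes were of that kind.

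**Figure D4:**
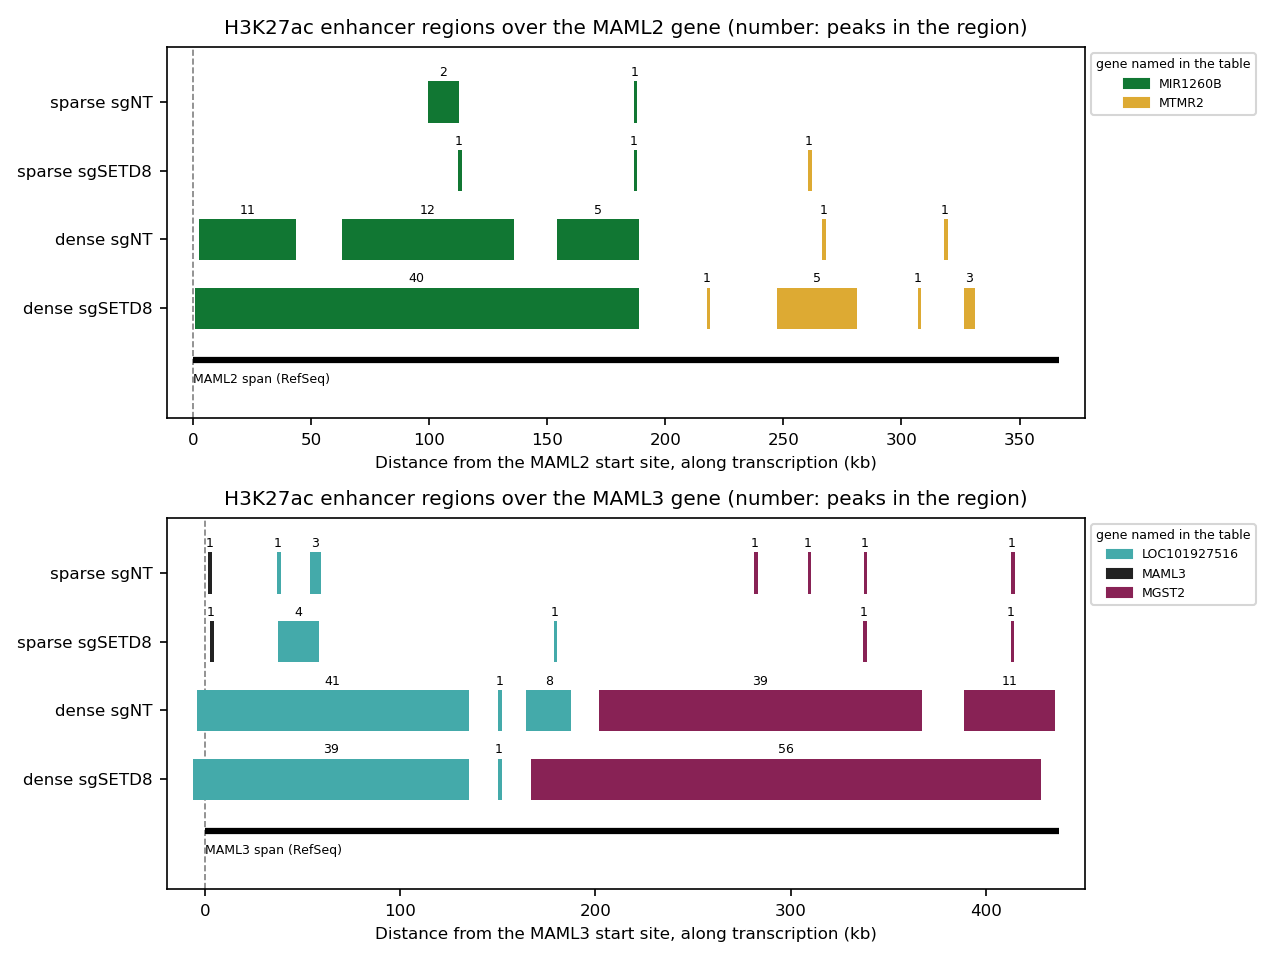
Regions over MAML2 (top) and MAML3 (bottom) in the 4 tables, by distance in kb from each start site (dashed line), with peak numbers above the bars and the RefSeq span in black; colours give the gene that the table names, and the narrowest bars are drawn wider than to scale. No bar over MAML2 carries its name, and the 3 dense sgNT bars after its start site are 1 bar in dense sgSETD8.

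By length of cover over the span in the dense pair, RBPJ, MAML2 and MAML3 were longer and NOTCH1, NOTCH2 and MAML1 shorter with sgSETD8, 3 of 6 each, where 60.1% of 7934 protein-coding genes were longer and 37.9% shorter. The log2 ratio of cover was 0.59 for MAML2, 0.12 for RBPJ, 0.09 for MAML3, -0.05 for NOTCH2, -0.24 for MAML1 and -0.35 for NOTCH1, beside a median of 0.10 and an SD of 1.52 over 5791 genes covered in both. All 6 dense values lay within 1 SD of that median. In the sparse pair RBPJ and MAML3 were longer with sgSETD8 (49.7% of 3953 genes) and NOTCH1, MAML1 and MAML2 shorter (50.2%). The sparse log2 ratio was 2.60 for RBPJ, 1.16 for MAML3 and -3.89 for MAML2, beside a median of -0.43 and an SD of 1.83 over 1053 genes. RBPJ and MAML2 thus lay over 1 SD from it, in opposite directions. Both values rest on joined regions, which count the bases between their peaks. For RBPJ, 1 sgSETD8 region of 29.5 kb ran across 3 sgNT regions that were 13389 and 12782 bp apart. Regions over its span held 6 peaks with sgNT and 8 with sgSETD8. For MAML2, 1 sgNT region of 2 peaks made up 12.9 of the 13.7 kb, and each group had 3 peaks. MAML2 was the gene whose direction differed between the pairs.

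Signal density could be compared at regions of the dense pair with a mutual cover of 90% or more, and the main RBPJ region was the only member region among 1769 of these. The raw log2 ratio, sgSETD8 over sgNT, was -0.30, beside a median of -0.26 and an SD of 0.24 over all of them. Relative to that median it was -0.04, far from the 0.5 used here as a fold, past which 2.49% of matched regions were higher and 1.92% lower. At a cover of 50%, 5 regions of 3 genes entered, and the relative values were -0.03, -0.09 and 0.39 for RBPJ, 0.29 for HES1 and 0.49 for NOTCH3. NOTCH3 had the highest of the 5 and was the 1 region of them that was narrower with sgSETD8. Over gene spans the relative log2 density was 0.02 for RBPJ, -0.07 for MAML3, -0.14 for NOTCH2, 0.25 for MAML1, 0.26 for MAML2 and -0.30 for NOTCH1, each within the SD of 0.57 over genes. In the sparse pair it was -0.52 for RBPJ, -0.40 for MAML3 and 2.35 for MAML2, with an SD of 1.00. The part of region width in these values was not tested.

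Other features of the 36 regions were described beside the shares over all regions. Of the 36, 22 were annotated as intergenic, 13 as intronic and 1 as a promoter. Of the dense regions, 7 of 12 with sgNT and 8 of 11 with sgSETD8 were intergenic, where 24.5% and 25.4% of all dense regions were, and 4 of the 7 and 4 of the 8 belong to RBPJ. Of the sparse regions, 6 of 9 with sgNT (37.1% of all) and 1 of 4 with sgSETD8 (46.9%) were intergenic, so sparse sgSETD8 lay below its table's share and the other 3 above theirs. The centre fell in an annotated repeat in 17 of 36, where this share ran from 30.2% to 51.3% over all regions of the 4 tables. All 9 sparse sgNT and all 4 sparse sgSETD8 regions overlapped a region of each dense table. Of these, 6 and 3 belong to RBPJ, which had 194 kb of regions in dense sgNT and 210 kb in dense sgSETD8. The choice used region numbers in all 4 tables, so this overlap is not independent of it. For all sparse sgSETD8 regions the share that overlapped dense sgNT was 24.7% and dense sgSETD8 26.3%, and for sparse sgNT it was 71.2% and 74.5%. Regions with no counterpart in the other group numbered 5 of 9 in sparse sgNT (79.1% of all regions), 2 of 4 in sparse sgSETD8 (85.1%), 2 of 12 in dense sgNT (22.7%) and 2 of 11 in dense sgSETD8 (34.0%). The members' regions often share a gene, so they are not independent.

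A cut on the curve of ranked signal, at the point where its scaled slope is 1, is the usual way to call super-enhancers, long regions with high signal. By this cut, made here and not by the authors, the regions named for members that passed all belonged to RBPJ. They were 0 of 9 member regions in sparse sgNT (3.03% of all regions), 1 of 4 in sparse sgSETD8 (2.80%), 2 of 12 in dense sgNT (4.68%) and 3 of 11 in dense sgSETD8 (4.26%). The additional dense sgSETD8 region was the one at 26193908 to 26238825, ranked 658 there, whose sgNT counterpart ranked 1238. By position the same cut also took in regions of MAML2, 2 in dense sgNT and 1 in dense sgSETD8, and of MAML3, 3 and 2 in the dense and 1 and 1 in the sparse pair.

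Another 57 genes of the pathway, listed by role, were looked at by deposited name, and 28 had a region in some table. Their regions numbered 9 with sgNT and 8 with sgSETD8 among the sparse tables, and 35 and 39 among the dense ones. Of the 24 genes with a dense region, 9 had more with sgSETD8 (37.3% of all genes), 5 fewer (21.2%) and 10 equal numbers (41.6%). In the sparse pair 3 of 10 had more (51.3%), 4 fewer (33.4%) and 3 equal numbers (15.3%). Regions with sgSETD8 only belonged to 4 of 24 genes in the dense pair (20.5% of all genes) and 3 of 10 in the sparse pair (45.9%). Regions with sgNT only belonged to 3 of 24 (11.4%) and 3 of 10 (28.8%). Genes with a region in 1 group only were named first by rule, so being named is no result. The dense counts lay near the background. The sparse ones held fewer genes with more regions than all genes did, but 10 genes are too few to set them apart from the background.

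For RBPJ partners and corepressors the dense tables held 11 (sgNT) and 18 (sgSETD8) regions and the sparse ones 4 and 2. TLE4, a Groucho-type corepressor, had 2 regions over 4.12 kb in dense sgNT and 5 over 35.8 kb in dense sgSETD8. NCOR1, a corepressor that carries histone deacetylases, had 1 over 13.5 kb and 2 over 10.7 kb. CIR1, a linker between RBPJ and deacetylases, had 1 weak region in dense sgSETD8 only (rank 16553). SPEN, another RBPJ corepressor, had 1 region in sparse sgNT only (rank 379). Genes of endocytosis and turnover had 12 and 8 dense regions. Of the 5 with a dense region, 3 had fewer with sgSETD8 (21.2% of all genes), 1 more (37.3%) and 1 an equal number (41.6%). These are too few to set apart from the background. Fewer were held by FBXW7, at 6 and 3, NUMB, an inhibitor of Notch, at 4 and 3, and NRARP, a feedback inhibitor, at 1 and 0. NUMBL had 0 and 1. By position NUMB had 5 regions in each dense table, over 28.3 kb of its span with sgNT and 45.7 kb with sgSETD8. MIB2, a ligase that acts on ligands, had 1 region in sparse sgSETD8 only.

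Receptor processing genes had 7 and 9 dense and 3 and 3 sparse regions. FURIN, the protease that cuts the receptor precursor, had 2 dense sgNT regions over 64.9 kb (best rank 398) and 3 dense sgSETD8 regions over 21.5 kb (best rank 1388), so more regions came with a shorter cover. POGLUT1, which adds glucose to the receptor, had 1 region in dense sgSETD8 only. The proteases ADAM10 and ADAM17 had equal numbers, ADAM10 with 1 and 1 in the sparse pair over 14.3 and 0.442 kb, and ADAM17 with 1 and 1 in the dense pair over 4.39 and 3.19 kb. Among the coactivators, the acetyltransferase genes EP300 and CREBBP had 1 and 2 regions in both dense tables, and EP300 and KAT2B had 1 each in sparse sgSETD8 only. Among ligands, DLL4 had 1 dense region in sgNT only and JAG2 1 in sgSETD8 only, ranked 13742 and 12786. The target HES4 was the gene of this list with a region in both sgNT tables and in no sgSETD8 table. These regions were short, at 0.625 kb (sparse, rank 3223 of 5186) and 0.801 kb (dense, rank 11635 of 15149). By position no table had a region over the RefSeq span of HES4. How many of all genes share this pattern was not counted, so HES4 is not set apart from the background.

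**Figure D5:**
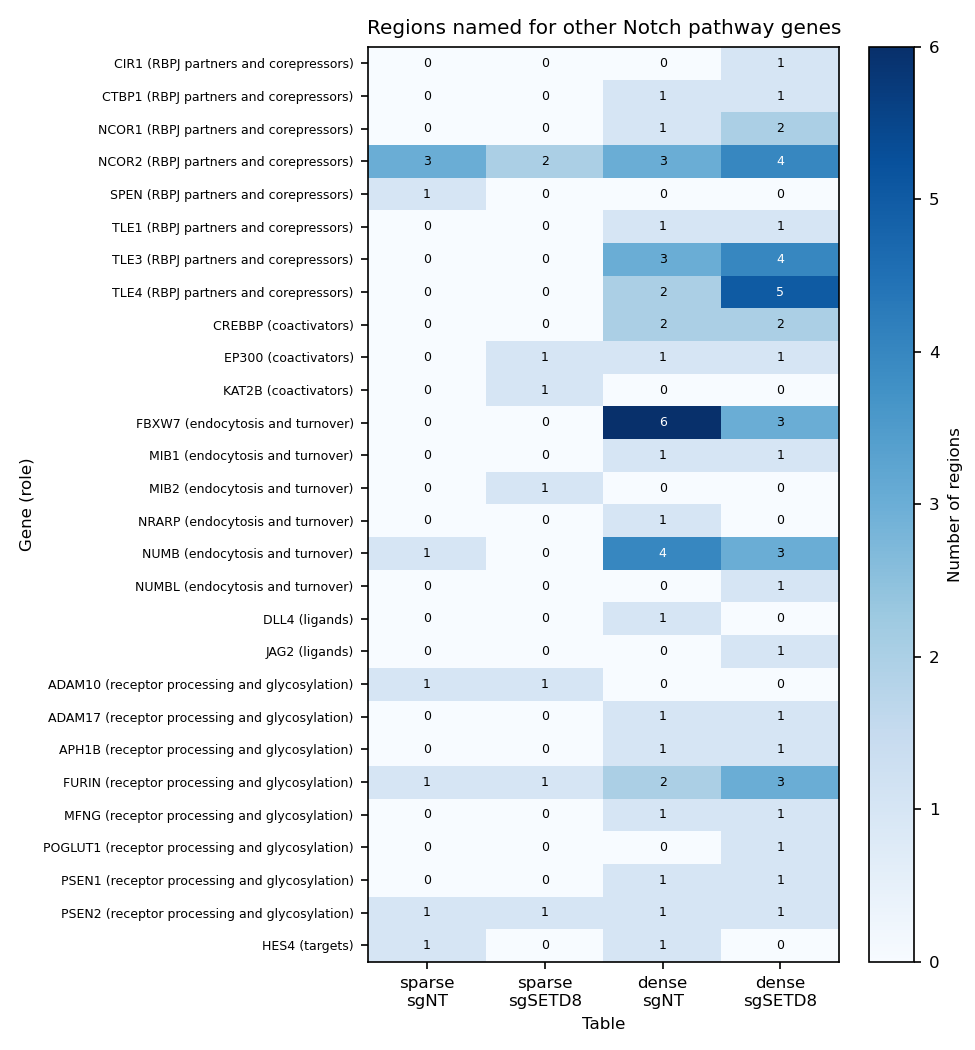
Number of regions named for each of the 28 other Notch pathway genes that had any, by table (columns), with the gene's role in brackets; darker blue is more regions and each cell prints its number. FBXW7 has 6 and 3 regions in the dense pair, TLE4 2 and 5, and HES4 has regions in the sgNT columns only.

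Likeness to other genes was measured on covered length by name, as the sum over the 4 tables of absolute differences in log2(kb + 1). The genes nearest to RBPJ were TBL1XR1 (1.32), MEF2C (1.40) and PTGER4 (2.35), with 180, 147 and 129 kb in dense sgNT and 198, 176 and 153 kb in dense sgSETD8. In the sparse pair TBL1XR1 had 8.32 kb with sgNT and 20.9 kb with sgSETD8, a measure that the choice used. Nearest to NOTCH1 were NMRAL1, PTPA and SLFN12L, to NOTCH3 CDC42P3, RAB4A and DNPH1, and to MAML3 INSR, RNU1-2 and FAM53A, at distances of 0.0810 to 0.634. Short covers resemble each other easily, so only the RBPJ match rests on long regions.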

How the data were processed

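H3K27ac CUT&Tag of 4 Kasumi-1 samples, each from 100000 cells per the labels, gave 4 tables. Per the submitters' processing notes, cutadapt and Bowtie2 were used and the build was hg38. How peaks were called, stitched and annotated is not given in the sources used here. For each region the authors' value is a signal, which equals a density per bp (4 decimals) times the length. Its scaling is not stated, so it was used to rank regions within a table and, at matched regions, relative to the median. Read depth is unknown. It was not resolved which of a group's 2 samples each table holds, and 0 value columns were left without a group. The series design text names H3K27me1, while the sample labels name H3K27ac, which is used here. Some marker genes of other cell types are not reported here.

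The members and lists were chosen with earlier results of these data known. Regions on the assembled chromosomes were used, overlaps needed 1 bp, and the routines were tested on simulated data. Named genes were all 10 members, up to 4 genes of each role list, those with a region in 1 group only first and then by the difference in dense region number, and the 3 genes most alike in covered length to each member with a region in at least 3 tables. FBXW7, named beside these, was chosen after its values were seen. Gene spans and promoter sequences came from RefSeq GRCh38.p14, where all 10 members and 56 of the 57 other genes matched as protein-coding genes. Alternatives were a TSS within 50000 bp, merging at the customary stitching distance, widths of at least 500 bp, the best-ranked 5000 regions, no promoter regions, 50% cover, a gap of 1000 bp, no centring and leaving out each pair. Counting by position, merging within 15000 bp and counting peaks were chosen after seeing the data. Python 3.11.15, numpy 2.4.6, pandas 2.3.3 and matplotlib 3.10.9 were used.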

Additional observations from a re-analysis of the deposited data

How the results depend on the processing

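No paired analysis was possible because the labels give no number that ties a sample of one group to a sample of the other. The pairs of tables rest on names in the identifiers, and their 2 differences were not tested. Over the 2 pairs the members' difference in region number ranged from -5 to -1 when each pair was left out, and that of the other pathway genes from -1 (without the dense pair) to 4. Counted by position, member regions were 17 and 12 in sparse and 20 and 18 in dense sgNT and sgSETD8, and the other genes' dense sgNT regions 57 with a mean difference of -4, which turns its direction. That difference also turned with a TSS within 50000 bp (-1) and with widths of at least 500 bp (-0.5). The width minimum left 1 sparse sgSETD8 region to each list. Counting peaks gave 8 in sparse sgSETD8 and 53 and 56 in the dense pair, and a mean difference for the members of 1, the opposite direction. The best-ranked 5000 regions left the members 6 and 5 and the other genes 13 and 15 in the dense pair. With a gap of 1000 bp, 1 dense region of each group had no counterpart, and with merging at the customary stitching distance 1 in sgNT. The median relative log2 density of matched regions was 0.29 at 50% cover and -0.30 without centring. All other values kept their direction and stayed within 1.5 times of those reported, or within 1 SD for differences and densities. For differences that SD is of the same 2 pair values. Leaving out a pair therefore cannot pass it, and staying within it is no sign that a difference is robust. Merging within 15000 bp joined the 3 sparse sgNT regions nearest before the RBPJ start and left 7 and 4 sparse and 9 and 9 dense member regions. The unknown depth means that a missing region may be a peak below a calling threshold.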

Other observations

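Position changed the picture of some other pathway genes too, in values looked at after the tables were seen. SPEN, a corepressor that binds RBPJ, had no dense region by name but 3 over its span in each dense table, covering 57.0 kb in sgNT and 49.1 kb in sgSETD8, and 7.85 and 0.274 kb in the sparse pair. ADAM10, a protease that cuts the ligand-bound receptor, had none by name in the dense pair but 4 over its span in each, covering 78.6 kb in sgNT and 95.6 kb in sgSETD8, while the sparse pair ran the other way with 21.2 and 0.442 kb. FBXW7, the ubiquitin ligase subunit that marks the Notch intracellular domain for breakdown, had 15 regions over 19.4 kb of its span in dense sgNT and 4 regions over 68.4 kb in dense sgSETD8. Its region number and its cover thus ran in opposite directions, while its regions held 16 peaks in sgNT and 15 in sgSETD8. Density was 0.957 in sgNT and 0.308 in sgSETD8, and joined regions count the bases between their peaks, so the longer cover is no measure of more acetylation. By position 27 of the 56 other genes with a RefSeq span had dense cover, 16 with a longer cover with sgSETD8 and 11 with a shorter one, where 60.1% and 37.9% of protein-coding genes did so. In the sparse pair 3 of 11 had a longer and 8 a shorter cover, where 49.7% and 50.2% of genes did so.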
